A study of Mus musculus with 22 samples.

Results

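The results concern 58 homeobox and paired-box transcription factor genes that lie outside the Hox clusters, grouped here as Pax (9 genes), the sine oculis family (5, Six2 to Six6), LIM homeobox (Lhx and Isl, 10), Irx (6), Dlx (6), Nkx (6) and 16 others (En, Emx, Otx, Gbx, Msx, Barhl, Barx, Gsc and Vax1). Their cytosines were all CpG positions in the gene body or within 2 kb of a curated RefSeq transcription start site (TSS) of mouse mm10. Only positions measured in each of the 22 mice were kept. This gave 7617 of 1140639 positions (0.668%), counting the cytosines of the 2 strands separately. Of the 58 genes, 57 had at least 3 promoter positions and 47 had at least 3 gene-body positions, while Pax4 had no measured position and is not described further.

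DNA methylation was read by ERRBS (enhanced reduced representation bisulphite sequencing), which sequences the CpG-rich part of the genome after bisulphite has converted unmethylated cytosines. PyMT mice were F1 females of the FVB/N background, heterozygous for the MMTV-PyVT transgene, in which the mammary tumor virus promoter drives the polyoma middle T antigen in mammary epithelium. Bulk mammary tissue was taken at week 6 (hyperplasia, 2 mice), week 8 (adenoma/MIN, that is mammary intraepithelial neoplasia, 3 mice), week 10 (early carcinoma, 3 mice) and week 12 (late carcinoma with lung metastasis, 2 mice). The controls were normal mammary glands of age-matched FVB females, which carry no transgene, 3 at each week. Each sample was 1 mouse, and the stage of a PyMT sample was that of its week. Because the tissue was bulk, a different share of cells of a type and a different methylation level within those cells cannot be told apart.

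Homeobox and paired-box proteins bind DNA and set the identity of body regions, organs and neurons during development, and most of them are silent in adult tissues where they are not needed. Their promoters are typically CpG islands that stay unmethylated while Polycomb complexes keep the genes silent, and islands of this kind are well known to gain DNA methylation in many tumors. Methylation at an island promoter generally goes with a silent gene, whereas methylation inside a gene body can accompany either state.

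The members were CpG-rich. In the window reaching 500 bp to each side of the TSS, the 57 tested members had a median of 70 CpGs, against 60 over all genes tested, and 84.2% of the members against 64.1% of all genes tested met an island-like composition (GC above 50%, observed over expected CpG above 0.6). In the FVB glands 6749 of the member positions (88.6%) were under 10% methylated, against 64% of all positions. The mean coverage of member positions was 66.3 to 98.2 reads per mouse. The FVB week 8 replicate 2 stood apart most, with a root-mean-square deviation from its group mean of 3.97 percentage points at member positions, against 2.60 to 3.58 in the other mice.

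The members held several short CpG clusters (measured positions at most 100 bp apart) in which the 10 PyMT and 12 FVB mice did not overlap. These were 30 of the members' 431 clusters (6.96%), a smaller share than the 12.7% of all 84563 clusters. The sequences of 7 of them are shown, with 1 more cluster from those called for a change with stage. The 7 held the largest gains and losses, 1 per gene, among clusters without noncoding exon sequence of any transcript, predicted ones included. Capitals mark each CpG measured in all mice. All are plus-strand mm10 sequences. Those that gained methylation were in Barx2 (chr9:31858998-31859082, coding exon and intron), Irx4 (chr13:73267465-73267591, coding exon and intron) and Six4 (chr12:73110796-73111095, intron, the first 300 bases of the cluster).
Barx2: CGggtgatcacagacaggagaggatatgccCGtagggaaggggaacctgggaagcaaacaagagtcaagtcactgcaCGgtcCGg
Irx4: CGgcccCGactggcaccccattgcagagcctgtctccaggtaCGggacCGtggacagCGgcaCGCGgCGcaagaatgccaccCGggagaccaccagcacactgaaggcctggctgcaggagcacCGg
Six4: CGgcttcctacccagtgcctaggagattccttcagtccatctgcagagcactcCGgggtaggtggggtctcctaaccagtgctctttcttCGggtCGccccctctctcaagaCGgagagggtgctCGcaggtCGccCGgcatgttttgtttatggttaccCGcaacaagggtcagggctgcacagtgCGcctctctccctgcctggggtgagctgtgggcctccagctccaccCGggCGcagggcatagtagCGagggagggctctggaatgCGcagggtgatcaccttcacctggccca
Those that lost methylation were in Pax3 (chr1:78149688-78149798, intron), Pax5 (chr4:44615504-44615610, intron), Emx1 (chr6:85203901-85203950, coding exon and intron) and upstream of Irx3 (chr8:91803048-91803144, positions -1489 to -1394 from the TSS).
Pax3: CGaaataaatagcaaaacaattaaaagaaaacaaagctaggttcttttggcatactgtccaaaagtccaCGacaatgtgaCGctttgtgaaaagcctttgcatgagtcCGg
Pax5: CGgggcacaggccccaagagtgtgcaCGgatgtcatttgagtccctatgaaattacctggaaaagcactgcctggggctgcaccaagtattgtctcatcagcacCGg
Emx1: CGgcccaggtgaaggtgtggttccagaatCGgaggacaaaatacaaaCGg
Irx3: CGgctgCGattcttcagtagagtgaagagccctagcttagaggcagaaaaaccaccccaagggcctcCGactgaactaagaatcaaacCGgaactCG
The cluster for the change with stage was in Barhl2 (chr5:106453617-106453719, coding exon and intron). It had the largest change among called clusters (adjusted p under 0.05) that were shorter than 300 bp and outside noncoding exons. Clusters that were not called, such as one in Dlx5, could change by more points.
Barhl2: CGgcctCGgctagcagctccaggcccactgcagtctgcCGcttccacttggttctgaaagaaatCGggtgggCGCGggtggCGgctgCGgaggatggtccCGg
The Barx2, Pax3 and Pax5 windows held 3 or 4 CpGs each, while the Irx4, Six4 and Barhl2 windows held 9 to 14, and GC content ran from 38.7% in Pax3 to 69.3% in Irx4.

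Close to the TSS the members had a higher mean level at each later week in PyMT mice, while controls stayed between 1.0% and 1.14%. Within 500 bp of a TSS (2802 positions) the mean methylation level of the PyMT mice was 1.16% ± 0.0728 at week 6 (SD, n = 2), 1.41% ± 0.0406 at week 8 (n = 3), 1.72% ± 0.0975 at week 10 (n = 3) and 2.04% ± 0.0810 at week 12 (n = 2). The FVB mice had 1.0% ± 0.145, 1.03% ± 0.0195, 1.08% ± 0.0221 and 1.14% ± 0.0397 (n = 3 each). From week 8 on the PyMT and FVB mice did not overlap, and at week 6 they did. The differences were 0.154, 0.384, 0.640 and 0.894 percentage points, beside 0.0577, 0.0981, 0.309 and 0.440 for all genes (537841 positions). Mitochondrial CpGs, a measure of incomplete conversion, read 0.224% ± 0.0343 in PyMT and 0.213% ± 0.0233 in FVB mice (n = 10 and 12).

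In the flanks of the same promoters the PyMT mean was first lower and then higher than that of controls. At 500 to 2000 bp from a TSS (2439 positions) the PyMT mean was 0.493 points below FVB at week 6, 0.250 below at week 8, 0.01 above at week 10 and 0.763 above at week 12. In these flanks the PyMT and FVB ranges overlapped at weeks 6, 8 and 10 and separated at week 12, where PyMT mice read 4.20% and 4.65% and FVB mice 3.55% to 3.85%. Over all genes the flank differences were -0.484, -0.377, -0.0981 and 0.197. The farthest member positions, 1500 to 2000 bp out, showed the widest swing, from 1.67 points lower at week 6 (5.11% ± 0.0433 against 6.78% ± 0.846) to 0.562 points higher at week 12 (7.17% ± 0.774 against 6.60% ± 0.553).

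**Figure D1:**
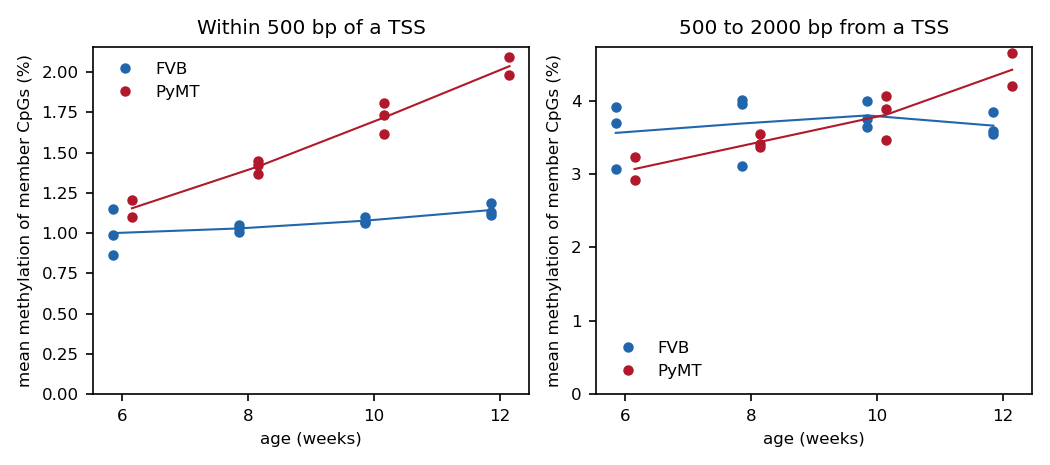
Mean percent methylation of member CpG positions in each mouse (points) by week, within 500 bp of a TSS and at 500 to 2000 bp, PyMT against FVB. Near the TSS the PyMT means climb from 1.16% to 2.04% while FVB stays between 1.0% and 1.14%. In the flank PyMT starts 0.493 points below FVB and ends 0.763 points above.

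Promoters were tested gene by gene with the mouse as the replicate, using limma on the mean percent methylation within 2 kb of a curated TSS, with p-values adjusted over all 16407 promoters. At week 6 no member promoter was higher and 1 was lower in PyMT mice, against 2.82% higher and 5.85% lower over all promoters, and 11 members had an unadjusted p under 0.05. At week 8 the counts were 8 higher and 3 lower of 57, against 8.75% and 8.51% of all. At week 10 they were 16 and 3, against 11.6% and 10.6%. At week 12 they were 24 and 1 (42.1% and 1.75% of the members), against 12.5% and 9.45% of all promoters. The week 8 gains fell to 3 without FVB week 8 replicate 2 and the week 12 gains to 14 without PyMT week 12 replicate 1. The week 10 losses became 5 without FVB week 8 replicate 2.

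Averaged over the 4 weekly differences, 28 member promoters were higher and 10 lower (49.1% and 17.5%), against 17.0% and 17.0% of all promoters, with a median difference of 0.318 points for the members and -0.00815 for all. Members had more measured positions per promoter (median 84, against 38 over all). Among promoters with at least 50 positions, 23 of 43 members were higher and 9 lower (53.5% and 20.9%), against 19.6% and 12.9% of 6536. All 57 member promoters were under 10% methylated in controls. Among the 12789 promoters under that level, 16.9% were higher and 11.4% lower. Without FVB week 8 replicate 2 the members' counts were 27 and 10.

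**Figure D2:**
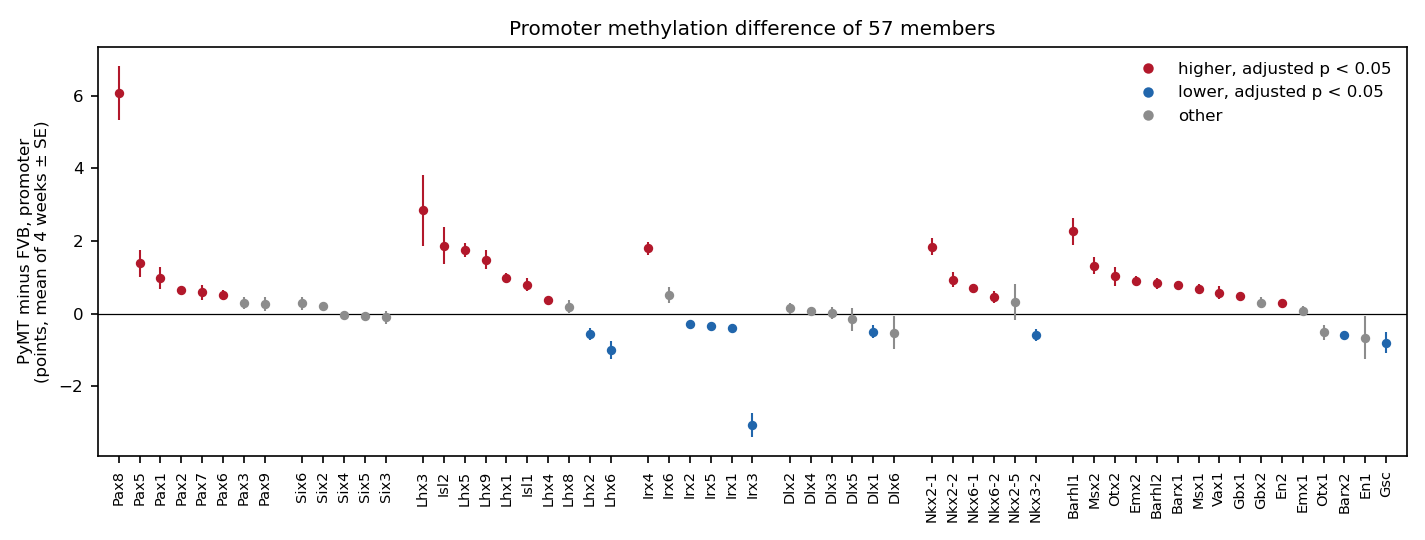
PyMT minus FVB promoter methylation (percentage points, mean of the weekly differences ± SE from limma) of the 57 member genes, ordered by family. Red marks the 28 promoters called higher, blue the 10 called lower and grey the others. Pax8 is the highest point (6.08 points) and Irx3 the lowest (-3.06 points).

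The Pax genes moved one way at their promoters, with 6 of 8 tested higher and none lower. Pax8 (chr2:24420551-24475599, minus strand), a regulator of thyroid and kidney development, had the largest gain of all members. Its promoter, measured at 10 positions that all lay 500 to 2000 bp from the TSS, read 6.16% and 4.97% in the PyMT mice at week 6, 9.61%, 10.0% and 6.67% at week 8, 8.59%, 12.5% and 9.23% at week 10, and 14.7% and 15.5% at week 12. The 12 FVB mice ranged from 0.451% to 7.37% (median 3.66%), so that all PyMT mice of weeks 10 and 12 lay above every control and those of week 6 did not. The mean difference was 6.08 ± 0.747 points (SE, exact within-week permutation p = 5e-05, two-sided, 40000 arrangements).

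Pax5, which commits cells to the B lineage, gained 1.39 ± 0.367 points (exact permutation p = 0.0024). Its promoter ranged from 2.77% to 6.74% (median 3.89%) in PyMT mice and from 1.73% to 4.11% (median 2.67%) in FVB mice, with overlap. With at least 20 reads per position the Pax5 difference was 0.966 (exact permutation p = 0.0647), and within 500 bp of the TSS it was 3.14 (exact permutation p = 0.0534). Pax1, which patterns the vertebrae, gained 0.985 points, Pax2, needed for the kidney, 0.647, Pax7, a muscle stem cell factor, 0.587 (exact permutation p = 0.0209) and Pax6, the eye regulator, 0.519 (limma adjusted p = 0.00793, exact permutation p = 0.051). Pax3, which acts in muscle and neural crest, and Pax9, which acts in teeth and thymus, had differences of 0.298 and 0.268 with limma adjusted p = 0.205 and 0.356. Pax3 passed the test at week 12 (1.25 points, adjusted p = 0.0149).

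The LIM homeobox genes, regulators of motor neurons, forebrain and pituitary, had 7 of 10 promoters higher and 2 lower. Lhx5, which acts in the hippocampus, read 2.58% to 5.47% in PyMT mice (median 3.75%) and 1.44% to 2.96% in FVB mice (median 2.1%). Its difference of 1.76 ± 0.192 points had an exact permutation p of 2.5e-05, the smallest that the 40000 arrangements allow. PyMT mice of week 6 still lay within the control range, and all later ones lay above it. Lhx9, a gonad regulator, gained 1.48 ± 0.261 points (exact permutation p = 2.5e-05), from 1.51% to 3.5% (median 2.53%) in FVB to 2.69% to 5.73% (median 4.05%) in PyMT mice, with overlap.

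The motor neuron genes Isl2 and Isl1 gained 1.87 ± 0.508 (exact permutation p = 0.00295) and 0.801 ± 0.181 points (exact permutation p = 0.001). Isl2 read 6.69% to 11.5% (median 8.83%) in PyMT and 5.83% to 9.23% (median 7.22%) in FVB mice, while Isl1 read 1.60% to 2.84% (median 2.05%) and 0.573% to 2.11% (median 1.39%). Both pairs of ranges overlapped. Lhx1 and Lhx4, regulators of the head organizer and the pituitary, gained 0.977 and 0.368 points. Lhx3, which acts with Lhx4 in the pituitary, had a difference of 2.85 ± 0.979 points that rested in part on 1 mouse. Its promoter read 15.7% in PyMT week 6 replicate 1 and 5.66% in replicate 2, with FVB mice at 6.23% to 9.94% (median 7.53%) and all PyMT mice at 5.66% to 15.7% (median 10.9%). The difference was 1.60 without the first of these mice (exact permutation p = 0.1) and 4.11 without the second.

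Lhx6, which specifies cortical interneurons, fell by 1.003 ± 0.252 points (exact permutation p = 0.00173), from 2.42% to 4.20% (median 3.54%) in FVB mice to 1.56% to 3.05% (median 2.20%) in PyMT mice, with overlap. By percent of all reads of the promoter, which weights positions by depth, the Lhx6 difference was -0.115 (exact permutation p = 0.459). Lhx2, which acts in eye and hair follicle, fell by 0.562 points. Lhx8, a basal forebrain factor related to Lhx6, differed by 0.189 points (adjusted p = 0.502, exact permutation p = 0.399), with PyMT mice at 0.966% to 3.08% (median 1.81%) and FVB mice at 0.818% to 2.1% (median 1.75%).

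The Irx genes, which pattern heart, limb and nervous system from paired gene clusters on chromosomes 13 and 8, went mostly down, with 4 of 6 promoters lower and 1 higher. In 1 of 57 member promoters (1.75%) all 10 PyMT mice lay below all 12 FVB mice, against 5.35% of all promoters. This was Irx3 (chr8:91798511-91801654, minus strand), the only member promoter without overlap. It read 2.18% to 5.32% (median 4.18%) in FVB mice and 0.676% to 1.58% (median 1.08%) in PyMT mice at every week. The difference of -3.06 ± 0.333 points (exact permutation p = 2.5e-05) was present at week 6 (-3.48) and at week 12 (-2.66). Irx1, Irx2 and Irx5 fell by 0.381, 0.274 and 0.337 points from control medians of 0.759%, 0.611% and 0.641%. Irx6 differed by 0.511 points (adjusted p = 0.0781).

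Irx4 (chr13:73260497-73269620, plus strand), the ventricle-restricted member, went the other way. Its promoter read 3.87% and 4.27% in the PyMT mice at week 6, 4.31%, 3.6% and 4.57% at week 8, 5.10%, 4.73% and 5.81% at week 10, and 5.46% and 5.11% at week 12. FVB mice ranged from 2.35% to 3.74% (median 2.84%), so that 9 of the PyMT mice lay above every control and 1 mouse of week 8 lay just below the highest. The difference was 1.80 ± 0.172 points (exact permutation p = 5e-05).

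Among the Nkx genes, regulators of endoderm, heart and ventral neural tube, 4 of 6 promoters were higher and 1 lower. Nkx2-1, the thyroid and lung factor, read 1.75% and 1.85% in the PyMT mice at week 6, within the FVB range of 1.05% to 2.68% (median 1.62%), and 5.95% and 4.70% at week 12, above it. The PyMT median over all weeks was 3.77%, and the mean difference was 1.85 ± 0.236 points (exact permutation p = 0.0001). Nkx2-2, a pancreas and neural tube factor, gained 0.941 points (exact permutation p = 0.00025), with PyMT mice at 1.91% to 3.71% (median 3.21%) and FVB mice at 1.42% to 2.83% (median 2.01%). Nkx6-1, a beta cell factor, gained 0.693 points and Nkx6-2, an oligodendrocyte factor, 0.453 (exact permutation p = 0.0268, PyMT mice 1.47% to 3.28%, median 2.17%, and FVB mice 1.34% to 2.37%, median 1.83%). With at least 20 reads the Nkx6-2 difference was 0.342 (exact permutation p = 0.106). Nkx3-2, a cartilage factor, fell by 0.584 points (exact permutation p = 0.00668), with PyMT mice at 2.25% to 4.38% (median 2.92%) and FVB mice at 2.93% to 4.44% (median 3.73%). The heart factor Nkx2-5 differed by 0.318 (adjusted p = 0.711).

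**Figure D3:**
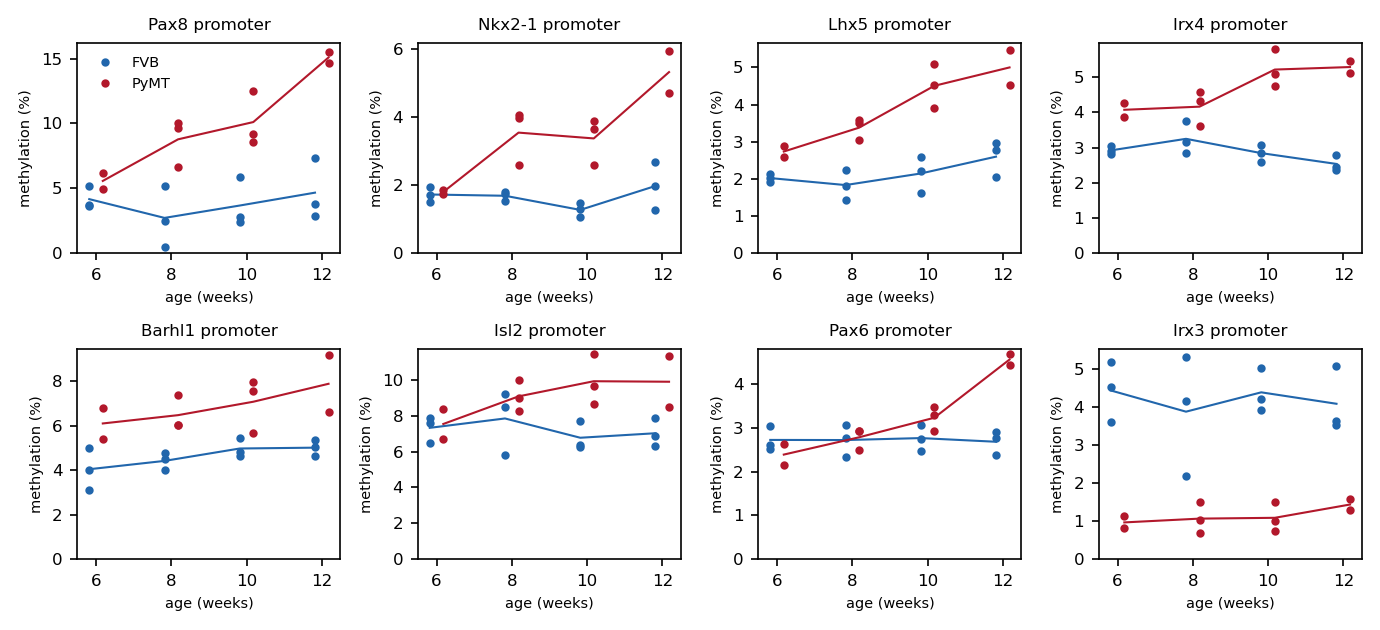
Promoter methylation (percent, mean of positions within 2 kb of a TSS) of Pax8, Nkx2-1, Lhx5, Irx4, Barhl1, Isl2, Pax6 and Irx3 in every mouse by week, PyMT against FVB. Irx3 is lower in all 10 PyMT mice, at 0.676% to 1.58% against 2.18% to 5.32%. Pax8 climbs to 14.7% and 15.5% at week 12.

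No sine oculis or Dlx promoter was called higher. None of the 5 sine oculis promoters (Six2 in kidney progenitors, Six3 and Six6 in eye and forebrain, Six4 and Six5 in muscle) passed the test over the weeks, with differences of -0.101 to 0.282. Of the 6 Dlx promoters, which belong to limb and jaw regulators, Dlx1 fell by 0.497 points and the other five had differences of -0.525 to 0.143 that did not pass. Dlx3 read 0.774% to 2.40% (median 1.22%) in PyMT mice and 0.758% to 1.78% (median 1.18%) in FVB mice, with a difference of 0.0204 ± 0.166 (exact permutation p = 0.910).

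Of the 16 other homeobox promoters 10 were higher and 2 lower. Barhl1, a sensory neuron factor, gained 2.27 ± 0.370 points (exact permutation p = 2.5e-05), with PyMT mice at 5.42% to 9.16% (median 6.68%) and FVB mice at 3.12% to 5.46% (median 4.70%), which overlapped at 1 PyMT mouse. Its paralog Barhl2 gained 0.836 points (exact permutation p = 0.00148), with PyMT mice at 1.34% to 3.96% (median 2.08%) and FVB mice at 1.12% to 1.98% (median 1.43%). Msx2, a target of bone morphogenetic proteins that is active in the embryonic mammary bud, gained 1.32 ± 0.225 points (exact permutation p = 7.5e-05), with PyMT mice at 1.08% to 4.32% (median 1.82%) and FVB mice at 0.445% to 1.80% (median 0.990%). All 3 of these overlapped. Otx2, Emx2, Barx1, Msx1, Vax1, Gbx1 and En2, which act in brain, eye, stomach and limb, gained 1.03, 0.900, 0.795, 0.674, 0.571, 0.497 and 0.283 points.

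Barx2, a muscle and hair follicle factor, fell by 0.597 points at its promoter (exact permutation p = 7.5e-05), from 0.608% to 1.74% (median 1.32%) in FVB mice to 0.472% to 1.07% (median 0.643%) in PyMT mice. Gsc, a factor of the embryonic organizer, fell by 0.795 points (exact permutation p = 0.0151), from 4.37% to 6.44% (median 5.27%) to 3.32% to 5.56% (median 4.23%). The Gsc difference was -0.529 without PyMT week 6 replicate 1 (exact permutation p = 0.0866). En1, of the midbrain, differed by -0.662 (adjusted p = 0.476, exact permutation p = 0.296), with PyMT mice at 3.98% to 8.78% (median 5.33%) and FVB mice at 4.81% to 8.02% (median 6.56%). Otx1, a forebrain factor, differed by -0.514 (adjusted p = 0.0675, exact permutation p = 0.0307), with PyMT mice at 3.43% to 5.78% (median 4.19%) and FVB mice at 3.79% to 5.52% (median 4.98%). Emx1 and Gbx2 differed by 0.0686 and 0.302 and did not pass.

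Several promoters held opposite changes in their inner part and their flank. Within 500 bp of the TSS, 27 of 55 tested members were higher and 1 was lower (49.1% and 1.82%), against 13.3% and 6.75% of 14659 genes. The lower one was Otx1 (-0.484 ± 0.136). At 500 to 2000 bp, 18 of 55 were higher and 10 lower (32.7% and 18.2%), against 18.4% and 22.4% of 9488. The inner part minus the flank of the same promoter was higher in PyMT mice in 15 of 53 members and lower in 4 (28.3% and 7.55%), against 20.9% and 13.7% of 7805. These splits were added after the values had been seen.

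Nkx3-2 showed both changes. Its inner 500 bp read 0.570% to 1.16% (median 0.780%) in FVB mice and 1.19% to 3.90% (median 2.12%) in PyMT mice, and did not overlap. Its flank read 5.77% to 9.54% (median 8.10%) in FVB mice and 3.29% to 5.91% (median 4.12%) in PyMT mice. The inner part rose by 1.58 ± 0.114 points and the flank fell by 3.75 ± 0.426, a contrast of 5.32 ± 0.435 (limma adjusted p = 9.28e-08).

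En1 gained 2.73 ± 0.401 points within 500 bp, from 0.604% to 1.97% (median 1.42%) in FVB mice to 1.55% to 8.07% (median 3.28%) in PyMT mice. Its flank differed by -1.86 ± 0.747 (adjusted p = 0.0572), and the contrast between the 2 parts was 4.59 ± 0.607. Gsc rose by 0.424 ± 0.0830 near the TSS and fell by 1.79 ± 0.527 in the flank, and Lhx2 rose by 0.323 and fell by 1.34.

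In Irx1, Irx2, Irx5 and Barx2 the loss lay in the flank (-0.884, -1.52, -0.479 and -1.21 points), with no call within 500 bp. In Irx3, Lhx6 and Dlx1 the loss also lay in the flank. Irx3 fell by 5.02 ± 0.568 points there and differed by -0.0425 within 500 bp (adjusted p = 0.791), Lhx6 fell by 6.28 ± 1.25 in the flank, at 12 positions, and differed by 0.436 within 500 bp (adjusted p = 0.133), and Dlx1 fell by 4.32 in the flank, at 3 positions. In Irx4, Isl2, Barhl1 and Vax1, the eye stalk factor, the gain was larger in the flank, with contrasts of -8.72, -2.44, -2.23 and -0.982 points. The Irx4 flank, measured at 7 positions, read 15.4% to 31.1% (median 20.3%) in FVB mice and 25.7% to 34.1% (median 31.1%) in PyMT mice.

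Inside the gene bodies (positions beyond 2 kb of a curated TSS) levels were higher and changes went both ways. Of 47 bodies tested by limma over the weeks, 16 were higher and 19 lower (34.0% and 40.4%), against 20% and 46.4% of 11436. The median difference was -0.149 points for the members and -1.71 for all. The 10 PyMT mice lay above all 12 FVB mice in 4 bodies (Barx2, Irx4, Lhx3 and Six4), against 4.85% of all, and below them in 4 (Emx1, Gbx1, Irx2 and Pax8), against 19.4% of all. For promoters the corresponding counts were 0 of 57 above (4.51% of all) and 1 below (5.35%).

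Barx2 (chr9:31846044-31913285, minus strand) had the largest gene-body gain, at 7 positions. FVB mice read 17.9% to 26.3% (median 22.6%) and PyMT mice 44.3% to 67.1% (median 57.5%). The difference was 33.6 ± 1.56 points over the weeks (exact permutation p = 2.5e-05) and was 28.2 at week 6. Most of it was in the cluster printed above, which holds 4 of the 7 positions, lies 54204 to 54287 bp from the TSS and read 18.3% to 27.5% in FVB and 52.4% to 80.3% in PyMT mice (47.4 ± 2.78 points). The Barx2 promoter moved the opposite way.

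Irx4 gained in its body, measured at 71 positions, from 6.58% to 17.1% (median 10.2%) in FVB mice to 24.8% to 34.5% (median 29.4%) in PyMT mice. The difference was 18.4 ± 1.07 points (exact permutation p = 2.5e-05). At week 6 it was already 14.2 points, and 19.8 at week 12. The cluster with the largest gain, printed above, read 12.8% to 31.0% in FVB and 48.7% to 72.3% in PyMT mice (42.4 ± 2.89 points). Another 5 Irx4 clusters gained 14.6 to 32.8 points, and in 5 of the 6 the groups did not overlap. The gain did not reach every stretch, and the positions 3080 to 3237 bp from the TSS read at most 5.63% in PyMT and 4.61% in FVB mice at week 12.

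**Figure D4:**
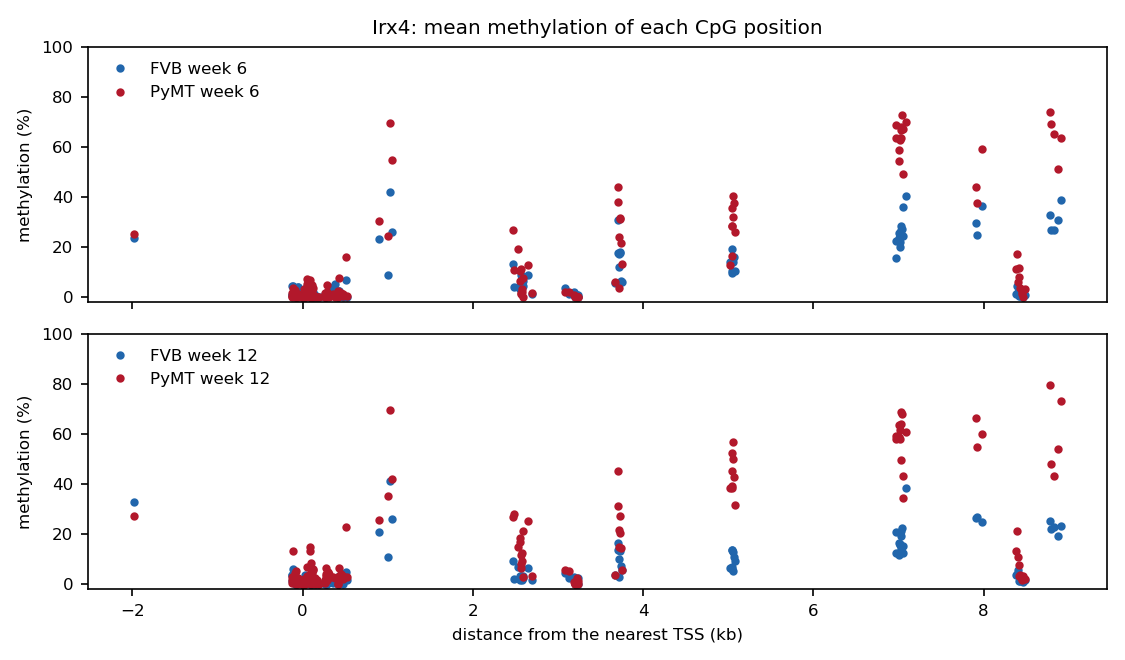
Mean methylation (percent) of each measured Irx4 position in PyMT and in FVB mice against its distance from the nearest TSS (kb), at weeks 6 and 12. Positions within 500 bp of the TSS are low in both groups. The larger gains lie in parts of the gene body, as in the cluster 6968 to 7093 bp from the TSS. This cluster gained 37.8 points at week 6 and 39.3 at week 12.

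Dlx3, which acts in epidermis, tooth and placenta, gained 23.3 ± 3.02 points in its body at only 4 positions (exact permutation p = 5e-05), from 39.6% to 63.1% (median 51.6%) in FVB mice to 63.0% to 84.2% (median 75.5%) in PyMT mice, which touched at 1 mouse. Its partner Dlx4 gained 6.55 points and Dlx5, a jaw regulator, 14.2, with Dlx2 at 1.70. All 4 of these bodies passed the test, whereas the same genes' promoters did not. The 2 remaining bodies, Dlx1 and Dlx6, differed by 4.17 and -2.85 (adjusted p = 0.222 and 0.194).

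Six4 gained 17.9 ± 0.972 points in its body, from 10.3% to 16.4% (median 14.4%) in FVB mice to 20.9% to 39.9% (median 31.6%) in PyMT mice, and 21 of its 22 positions lay in the intron cluster printed above in part. Six3 gained 0.786 points and Six2 differed by 1.18 (adjusted p = 0.0701). Lhx3, whose body was nearly unmethylated, gained 1.39 ± 0.152 points, from 0.266% to 1.31% in FVB mice to 1.53% to 3.08% in PyMT mice. Of the other LIM bodies 6 fell. Lhx6 fell by 7.42 points and Lhx9 fell by 4.55.

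Pax8 had the largest gene-body loss, with 9 positions, opposite in sign to its promoter. FVB mice read 68.6% to 80.8% (median 77.2%) and PyMT mice 48.9% to 62.4% (median 56.6%). The difference was -19.6 ± 1.22 points (exact permutation p = 2.5e-05), and -12.1 at week 6 against -27.9 at week 12. Pax3, Pax5 and Pax7 fell by 3.71, 0.963 and 0.868 points, and Pax6 gained 4.20.

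The 4 tested Irx bodies (Irx3 and Irx6 had under 3 body positions) differed in the same directions as their promoters, with Irx4 higher. Irx2 read 6.77% to 12.6% (median 9.27%) in FVB mice and 1.43% to 4.15% (median 1.87%) in PyMT mice (-7.15 ± 0.536 points), Irx1 fell by 4.56 and Irx5 by 2.39. En1, Emx2, Gbx2, Emx1 and Gbx1 fell by 10.3, 7.58, 7.01, 5.91 and 5.48 points. Barhl1, Otx1, En2 and Barhl2 gained 2.12, 2.103, 1.53 and 1.45. Among the Nkx genes Nkx2-5 and Nkx2-1 gained 1.60 and 1.42 points and Nkx2-2 fell by 2.60.

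At the level of clusters, 431 lay in the members. By limma over the weeks 125 were higher and 84 lower (29.0% and 19.5%), against 16.6% and 31.6% of 84563. Of the called ones 14 were higher by at least 10 points and 19 lower by as much (3.25% and 4.41%), against 6.32% and 16.1% of all clusters. In 30 of the members' clusters the groups did not overlap (6.96%), against 12.7% of all. This fit was added after the values had been seen.

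Losses of that size lay in introns, exons and upstream sequence, at high and at low control levels. A Pax2 cluster read 86.4% to 91.4% in FVB mice and an Irx1 cluster 12.8% to 31.2%. The largest loss was in the Pax3 cluster printed above, 47339 to 47448 bp from the TSS. There FVB mice read 56.7% to 77.1% and PyMT mice 7.86% to 27.6% (-48.7 ± 2.91 points). The PyMT mice of week 6 already read 12.8% and 12.9%. Pax5 lost methylation at 5 intron and exon clusters by 12.7 to 26.7 points, while its intragenic islands gained, such as a cluster of 101 positions that rose by 1.95 points with PyMT mice at 1.66% to 5.11% and FVB mice at 0.733% to 1.42%. The cluster printed for Pax5 read 66.2% to 86.8% in FVB and 39.5% to 62.2% in PyMT mice.

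Emx1 lost 21.4 ± 1.53 points in the exon cluster printed above, from 76.3% to 89.0% in FVB mice to 53.3% to 69.5% in PyMT mice, and the loss was 13.0 points at week 6 and 30.8 at week 12. The cluster upstream of Irx3 lost 21.1 ± 2.82 points, from 15.5% to 36.7% to 1.47% to 11.9%, and was largest at week 6 (-27.1). Nkx3-2, Pax2, Six3 and Irx1 each lost 13.8 to 15.7 points in 1 cluster without overlap.

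**Figure D5:**
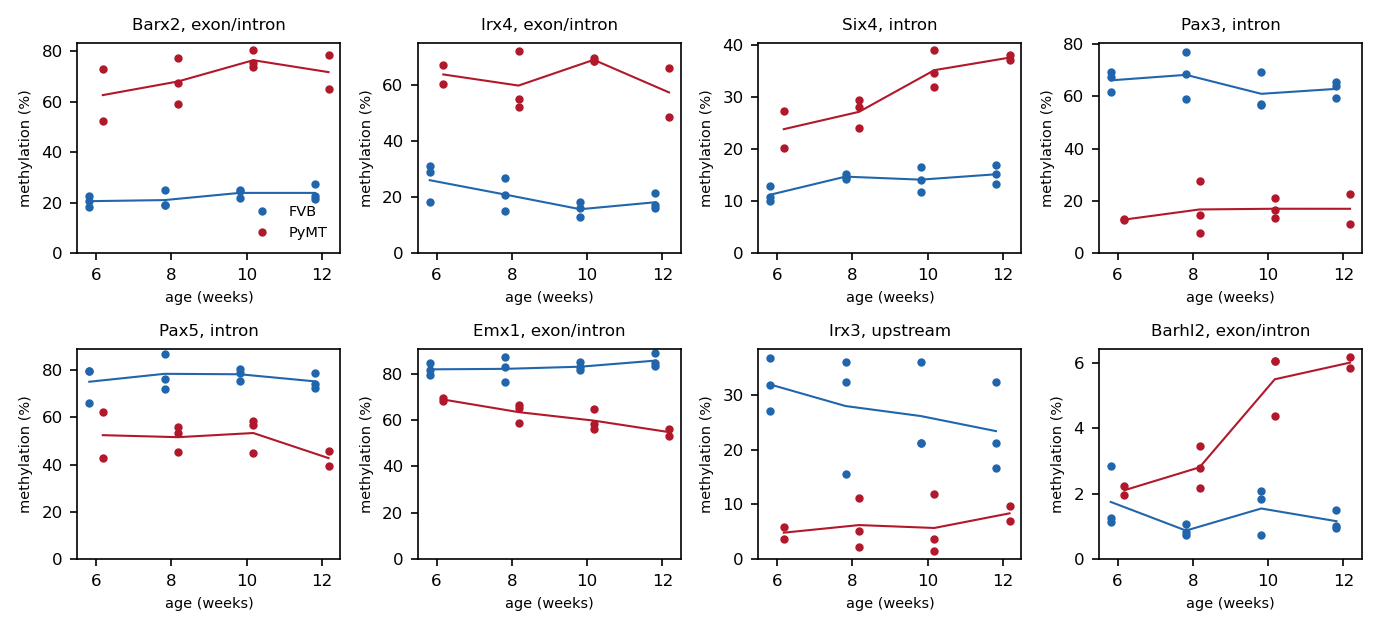
Methylation (percent, mean of the positions) of the 8 printed clusters in every mouse by week, PyMT against FVB. Barx2, Irx4 and Six4 are higher and Pax3, Pax5, Emx1 and Irx3 lower in all 10 PyMT mice. Barhl2 reaches at most 6.17% and lies above the controls of the same week from week 8 on.

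The step from premalignant (weeks 6 and 8) to malignant (weeks 10 and 12) stages was tested as a limma interaction term, the PyMT minus FVB difference of the later weeks minus that of the earlier ones. At promoters 5 members rose and none fell, against 2.41% and 0.122% of all, and 20 members had an unadjusted p under 0.05. They were Irx4 (1.53 points), Pax6 (1.31), Barhl2 (1.24), Emx2 (1.17) and the stomach regulator Barx1 (0.946). Pax6 read 2.16% and 2.63% in the PyMT mice at week 6, inside or below the control range of 2.33% to 3.07%, and 4.44% and 4.70% at week 12. The count was 1 without PyMT week 12 replicate 1 and 2 without either PyMT week 6 mouse.

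In gene bodies 3 members rose (Six4 by 9.70 points, Barhl1 by 2.08 and Nkx2-1 by 1.44) and Pax8 fell by 11.2, against 0.586% and 0.735% of all. None of them passed without PyMT week 12 replicate 1 or without PyMT week 6 replicate 2, and 1 gain passed without PyMT week 6 replicate 1. Among clusters 7 rose and none fell, against 0.577% and 0.271% of all. They lay in Lhx4, Barhl1, Pax5, Barhl2, upstream of Lhx1, in Nkx2-1 and at Barx1, and all were low in controls. The printed Barhl2 cluster read 0.722% to 2.85% in FVB mice, 2.24% and 1.97% in the PyMT mice at week 6 and 4.39% to 6.17% in the PyMT mice of weeks 10 and 12. The count was 13 without PyMT week 10 replicate 3.

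Single positions were called differentially methylated cytosines (DMCs) at q under 0.01 and a difference of at least 10 points, by a logistic likelihood-ratio test that treats reads as replicates. The hyper-DMCs of the members grew from 99 at week 6 to 115, 176 and 228 at week 12 (1.3%, 1.51%, 2.31% and 2.99% of member positions), against 2.62%, 3.2%, 4.39% and 4.44% of all positions. The hypo-DMCs numbered 194, 186, 228 and 186 (2.55%, 2.44%, 2.99% and 2.44%), against 6.01%, 7.1%, 8.42% and 8.53% of all. The week 6 hyper-DMCs numbered 157 without PyMT week 6 replicate 2. Member genes with at least 1 hyper-DMC numbered 27 at week 6 and 43 at week 12, and those with a hypo-DMC 34 and 32. The share of all genes with a call was not computed, so these gene counts have no genome-wide value beside them. Members also had more measured positions per promoter (median 84, against 38 over all).

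Near the TSS the members held a smaller share of DMCs than positions at the same distance from a TSS over all genes. Within 500 bp the hyper-DMCs numbered 6, 6, 19 and 30 over the weeks (0.214%, 0.214%, 0.678% and 1.07% of the positions there), against 0.592%, 0.757%, 1.35% and 1.69% over all genes. The hypo-DMCs there numbered 3, 4, 6 and 4 (0.107% to 0.214%), against 0.481% to 0.642%. At 500 to 2000 bp the hyper-DMCs numbered 24, 18, 35 and 55 (0.984%, 0.738%, 1.44% and 2.26%), against 1.9%, 2.49%, 3.84% and 4.33%. The hypo-DMCs of that zone numbered 69, 50, 67 and 45 (1.85% to 2.83%), against 3.36% to 4.38%. These shares were compared without a test. Among positions under 10% in controls, hyper-DMCs went from 0.548% to 1.73% of the members between weeks 6 and 12, and from 0.425% to 1.59% of all positions. In the members 39 positions were hyper-DMCs and 46 hypo-DMCs at every stage (0.512% and 0.604%), against 1.05% and 3.27% of all positions. At week 12 alone 104 hyper-DMCs and 46 hypo-DMCs were called (1.37% and 0.604%), against 1.23% and 1.52% of all.

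Between malignant and premalignant PyMT mice 67 member positions gained and 14 lost (0.88% and 0.184%), against 1.37% and 1.07% of all. In the FVB mice of the same weeks 13 gained and 10 lost, against 0.645% and 0.264% of all. The 14 losses became 8 without PyMT week 10 replicate 3. Differentially methylated regions (DMRs) were clusters with a mean difference of at least 20 points that held a DMC of at least 25 points. They numbered 4 gains and 4 losses at week 6 and 4 and 5 at week 8. There were 11 and 6 at week 10, and 10 and 8 at week 12. Over the genome these numbered 1318 and 4620, 1688 and 5177, 2556 and 6738, and 2791 and 7789. The candidate clusters numbered 431 in the members and 84563 over the genome.

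Other developmental regulators were counted in the same promoter test over the weeks. Of 64 further homeobox promoters 41 were higher and 4 lower. The counts were 17 and 10 of 39 Hox cluster promoters and 13 and 7 of 34 Sox and T-box promoters. Beside them stood 28 and 10 of 57 member promoters (49.1% and 17.5%) and 17.0% and 17.0% of all promoters. No test between these lists and the members was made. From genes with promoter hyper-DMCs the study printed names of targets of Polycomb repressive complex 2, so unnamed members may also be among those genes. It named 8 members for hyper-DMCs in late carcinoma only (Barhl2, Gsc, Isl1, Lhx8, Nkx2-1, Nkx2-2, Nkx3-2 and Nkx6-2). Promoter hyper-DMCs are a different measure from the promoter mean. By the mean 5 of them were higher and none lower at week 12, where Gsc and Nkx3-2 differed by 0.155 and 0.209 points. Over all weeks 5 were higher and 2, again Gsc and Nkx3-2, lower, although both rose within 500 bp of the TSS. Of 2 members named for hyper-DMCs at all stages (Otx1 and Pax7) none passed at week 12 and 1 was higher over the weeks. These lists were drawn from these same mice and are not independent evidence.

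Among cell type markers the epithelial promoters were lower, and the other 4 lists had at most 2 lower promoters each, beside 17.0% higher and 17.0% lower over all promoters. Of 14 listed epithelial markers 12 were tested and all 12 promoters were lower in PyMT mice, with a mean level of 14.6% to 19.5% in FVB and 7.99% to 10.2% in PyMT mice. The promoters of fibroblast markers were higher in 4 of 7 and lower in none (11.5% to 15.03% in FVB, 15.1% to 17.99% in PyMT mice), those of adipocyte markers higher in 3 and lower in 2 of 8 (28.2% to 32.0% and 23.9% to 28.2%), those of endothelial markers 2 and 2 of 7 (26.6% to 31.6% and 33.6% to 36.8%) and those of leukocyte markers 1 and 1 of 4 (29.8% to 34.1% and 25.7% to 34.8%). Of the 12, 9 were already lower at week 6. The part of cell composition in the members' differences was not tested.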

How the data were processed

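ERRBS libraries of 10 PyMT and 12 FVB mammary samples were used. Per the study's methods and the submitters' processing notes, the authors aligned reads to mm10 with Bismark and removed 2 outliers (3 mice per group and week were collected). The deposited files give, per position, the coverage as a read count and the percent of methylated and unmethylated calls, for positions with at least 10 reads, 1314077 to 1435757 per mouse with a total coverage of 80114262 to 109502636. Intervals were not formed from reads, since PCR copies are not independent molecules.

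Methylated reads were recovered from coverage and percent. Positions present in all 22 files were kept. All 1625271 positions lay on a reference CpG. RefSeq annotation of mm10 gave TSSs and gene bodies (curated transcripts, for the tested regions and for membership). Promoters were 2 kb to each side of a TSS and bodies the rest of the gene, with at least 3 positions. The mean percent per mouse was tested in limma 3.58.1 (R 4.3.3, trend) with the 8 groups in 1 fit, and p-values were adjusted by Benjamini-Hochberg over all regions, called at 0.05. DMCs came from a per-position logistic likelihood-ratio test, a stand-in for methylKit. Named promoters also got a two-sided exact permutation test within weeks. Counts used Python 3.11.15, NumPy 2.4.6, SciPy 1.17.1 and pandas 2.3.3. P-values measure the spread between mice, and those of DMCs the spread of reads.

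The members and lists, and the comparison lists of further homeobox, Hox, Sox and T-box genes, cell type markers and genes placed by the study, were chosen with earlier results of these data known. Values were printed for the 10 largest promoter gains, the 5 largest promoter losses, the 4 largest body differences and the members in the study's lists, and others by family. Genes added to a sentence for their calls or clusters were chosen after their values were seen. On simulated data limma recovered 83.5% of 200 promoters changed by 3 points, with 4.57% false calls. The members' median promoter difference was 0.318 points, and recovery of changes under 3 points was not simulated. The read-based test recovered 97.4% of changed positions at week 10 with 48.6% false calls when counts also varied between mice. Same-numbered replicates did not deviate together (correlations -0.0404 to 0.0248), so that the numbers were not used as pairs. Replicates differed beyond counting noise in every pair (mean chi-square 1.85 to 3.53).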

Additional observations from a re-analysis of the deposited data

Results flagged for a closer look

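The PyMT minus FVB difference changed between the premalignant (weeks 6 and 8) and malignant (weeks 10 and 12) stages in 9 regions, by a limma interaction term with p-values adjusted over all regions of the kind. At promoters it rose by 1.31 ± 0.286 points in Pax6 (SE, adjusted p = 0.0195), 1.53 ± 0.345 in Irx4 (0.0238), 1.17 ± 0.281 in Emx2 (0.0328), 1.24 ± 0.298 in Barhl2 (0.0328) and 0.946 ± 0.203 in Barx1 (0.0176). In gene bodies it rose by 9.70 ± 1.94 in Six4 (0.0246), 1.44 ± 0.345 in Nkx2-1 (0.0493) and 2.08 ± 0.468 in Barhl1 (0.04), and in Pax8 it was -11.2 ± 2.43 (0.0364). These calls depended on single mice and on the scale, as given in the next part.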

How the results depend on the processing

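A threshold of 25 points left 35 hyper- and 33 hypo-DMCs in hyperplasia, 30 and 31 in adenoma/MIN, 59 and 37 in early carcinoma, 77 and 46 in late carcinoma, and 0 and 0 between malignant and premalignant PyMT mice. Correcting for overdispersion left, in that order, 35 and 66, 42 and 56, 106 and 133, 130 and 108, and 8 and 0. With DMRs of at least 10 points the gains and losses were 8 and 8 in hyperplasia, 9 and 11 in adenoma/MIN and 19 and 13 in late carcinoma. Early carcinoma had 12 losses. Over the genome these numbered 2767 and 8246, 3266 and 9248, and 4852 and 13114, with 11319 losses in early carcinoma.

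For promoters within 500 bp, losses were 0 at weeks 6, 8, 10 and 12 and 1 over all weeks, and week 8 gains 4. The flank alone had 18 gains over all weeks. With at least 20 reads, losses were 2 in hyperplasia, 6 in early carcinoma and 2 in late carcinoma, and adenoma/MIN gains 5. On the log2 ratio of reads, week 8 losses were 1 and week 10 gains 9, and by percent of all reads week 8 losses were 1. The change with stage had 0 promoter gains and 0 body gains and losses under both of these scales, and 0 body losses with 20 reads or 10 positions. At 500 bp the differences of Gsc (0.424), En1 (2.73) and Nkx3-2 (1.58) turned positive, and that of Lhx6 (0.436) did so both there and with 20 reads, where only inner positions were left. Under these settings 6 named promoters no longer passed the exact permutation test: Lhx6 by percent of all reads (-0.115), Pax5 (0.966), Nkx6-2 (0.342) and Otx1 (-0.395) with 20 reads, and Isl2 (0.142), Pax5 (3.14) and Irx3 (-0.0425) within 500 bp.

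With the replicate block, which the numbers do not support as a pairing, promoter losses were 0 at weeks 6 and 12 and 5 over all weeks, and the change with stage had 0 promoter gains, 0 body gains, 0 body losses and 0 cluster gains. The block moved no other promoter, body or cluster count by more than 1.5 times.

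Leaving out 1 mouse at a time, DMC gains ranged from 84 to 157 at week 6, and malignant losses from 8 to 16. Promoter gains and losses were 0 to 2 and 1 to 2 in hyperplasia, 3 to 12 and 2 to 3 in adenoma/MIN, 11 to 17 and 2 to 5 in early carcinoma, and 14 to 26 and 0 to 2 in late carcinoma. The change with stage had 1 to 7 promoter gains, 0 to 4 body gains, 0 to 1 body losses, 5 to 13 cluster gains and 0 to 1 cluster losses. The cause of these shifts was not tested. Counts over all weeks kept within 1.5 times (promoters 23 to 29 and 8 to 11, bodies 15 to 18 and 17 to 20, clusters 119 to 130 and 74 to 86). Of the differences of named promoters with 1 mouse left out, 516 kept direction and side of the threshold and 12 no longer passed. Depth of 66.3 to 98.2 reads per member position does not resolve changes of under 1 percentage point at single positions, and promoters with under 20 positions rest on few CpGs.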
